A study of Mus musculus with 8 samples.

Results

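The PYHIN genes of mouse chromosome 1 are a family of interferon-inducible genes that lie side by side, and 10 of them are described here: Ifi206, Ifi214, Ifi213, Ifi209, Ifi208, Ifi207, Ifi204, Mndal, Ifi211 and Ifi203. They were taken by gene symbol from a deposited expression table of 24612 genes, and all 10 passed the filter on low values. The 10 symbols were chosen with the measured values of these same libraries in view, and the sources used here do not say which comparison was used. For that reason their values and differences in every comparison are given as a description, and p-values are given only for other genes. Where members past a threshold are counted, nothing is read from the count.

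PYHIN proteins usually carry an N-terminal pyrin domain, which binds other pyrin domains, and 1 or more C-terminal HIN domains, which bind DNA; some members have a pyrin domain alone. Several are DNA sensors in immune cells: Aim2 joins the adaptor ASC and activates caspase-1 in the inflammasome, and p204, the product of Ifi204, signals through STING to interferon genes. Many of the genes are themselves induced by interferon, through interferon-stimulated response elements bound by STAT and IRF proteins.

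RNA was extracted from skin homogenate of male C57BL/6J mice, with treatment starting at 6 weeks of age and lasting 21 days. The PBS group (2 libraries) was given 0.1 mL of phosphate-buffered saline under the skin, and the bleomycin group (3 libraries) was given 0.1 units of bleomycin, a DNA-damaging drug used to produce skin fibrosis in mice. The celastrol group (3 libraries) was given daily injections of celastrol, a plant triterpenoid, into the peritoneum at 1 or 2 mg/kg. Which of these mice had which dose, and whether they also had bleomycin, is not given in the sources used here. The series title names an anti-fibrotic action of celastrol in systemic sclerosis as its subject.

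The deposited values, which are read estimates divided by a library size factor, summed to between 22900000 and 26400000 per library. Estimated depth was between 14900000 reads (Celastrol 3) and 37100000 reads (Celastrol 5). Celastrol 2 stood apart on the first principal component of all tested genes (32.7% of the variance), with a score of 237 against -57.3 to -3.63 in the other libraries. The labels name no batch. The keratin genes Krt5 and Krt14, which mark the epidermis, were at 10857 or more in every library. These are whole-tissue libraries, so fewer cells of a type and less RNA per cell cannot be told apart.

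The members span 474 kb, chr1:173468485-173942672 (mm10), 8 on the minus strand and 2, Ifi209 and Ifi208, on the plus strand. RefSeq promoter windows, 250 bases before to 50 after a gene's start (GRCm38.p6, the same assembly as mm10), were at hand for 9 of the 10, in 11 windows; Ifi204 was not matched. The interferon-stimulated response element core, GAAANNGAAA on either strand, was present in 8 of these 9 genes, against 3.44% of all 32851 windows and 3.99% of 27025 genes. The gamma-activated site, TTCNNNGAA on either strand, was present in 0 of the 9, against 8.30% of all windows. A match describes the letters only and is not evidence of binding.

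In 7 of the members the core was the same 10 bases, 35 to 79 bases before the start. Mndal and Ifi203 have 2 windows each, and the window with the nearest match is used for each. In the other window the nearest match differs at 2 bases in Mndal and at 4 in Ifi203. The stretches around the 10 bases are shown because they show which members have alike sequence there, from 50 to 60 of the 60 bases compared within a group. They are lined up on the 10 bases, not on the start. Each is 60 bases, 5′ to 3′ on the gene's own strand, with capitals for the 10 bases or their nearest match. Ifi205, a PYHIN gene outside the 10, is given for comparison. Its match lies 134 bases before the start, against 37 in Ifi211 and 41 in Ifi207.
Ifi206: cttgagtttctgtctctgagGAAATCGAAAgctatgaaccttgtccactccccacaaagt
Ifi213: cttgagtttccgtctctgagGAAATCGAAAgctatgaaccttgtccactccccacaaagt
Ifi208: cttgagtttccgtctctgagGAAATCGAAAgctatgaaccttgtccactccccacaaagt
Ifi214: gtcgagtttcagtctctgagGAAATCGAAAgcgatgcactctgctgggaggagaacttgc
Ifi209: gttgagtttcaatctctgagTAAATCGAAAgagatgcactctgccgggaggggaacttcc
Ifi207: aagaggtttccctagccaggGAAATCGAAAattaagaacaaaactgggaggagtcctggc
Ifi211: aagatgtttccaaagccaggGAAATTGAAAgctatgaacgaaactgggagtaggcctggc
Mndal: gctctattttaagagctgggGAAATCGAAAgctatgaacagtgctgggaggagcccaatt
Ifi203: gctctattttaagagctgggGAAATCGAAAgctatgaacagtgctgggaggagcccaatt
Ifi205: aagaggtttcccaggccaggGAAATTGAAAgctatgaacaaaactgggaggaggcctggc

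The stretches lie at chr1:173491319-173491378 (Ifi206), chr1:173599306-173599365 (Ifi213), chr1:173673587-173673646 (Ifi208), chr1:173535997-173536056 (Ifi214), chr1:173630760-173630819 (Ifi209), chr1:173741811-173741870 (Ifi207), chr1:173913044-173913103 (Ifi211), chr1:173880184-173880243 (Mndal), chr1:173942488-173942547 (Ifi203) and chr1:174031850-174031909 (Ifi205). Counting from 1 at the first of the 10 bases, Ifi209 differs by G1T, so that it holds no core, and Ifi211 and Ifi205 both differ by C6T, which leaves the core whole. Ifi213 and Ifi208 are identical over all 60 bases, and Ifi206 shares 59 with each. Ifi214 and Ifi209 share 53 of 60, Ifi207 and Ifi211 share 50, and Mndal and Ifi203 share all 60. Ifi205 shares 55 with Ifi211 and 53 with Ifi207. Across these groups the likeness is lower: Ifi206 shares 38 bases with Ifi214, 26 with Ifi207 and 33 with Mndal.

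**Figure D1:**
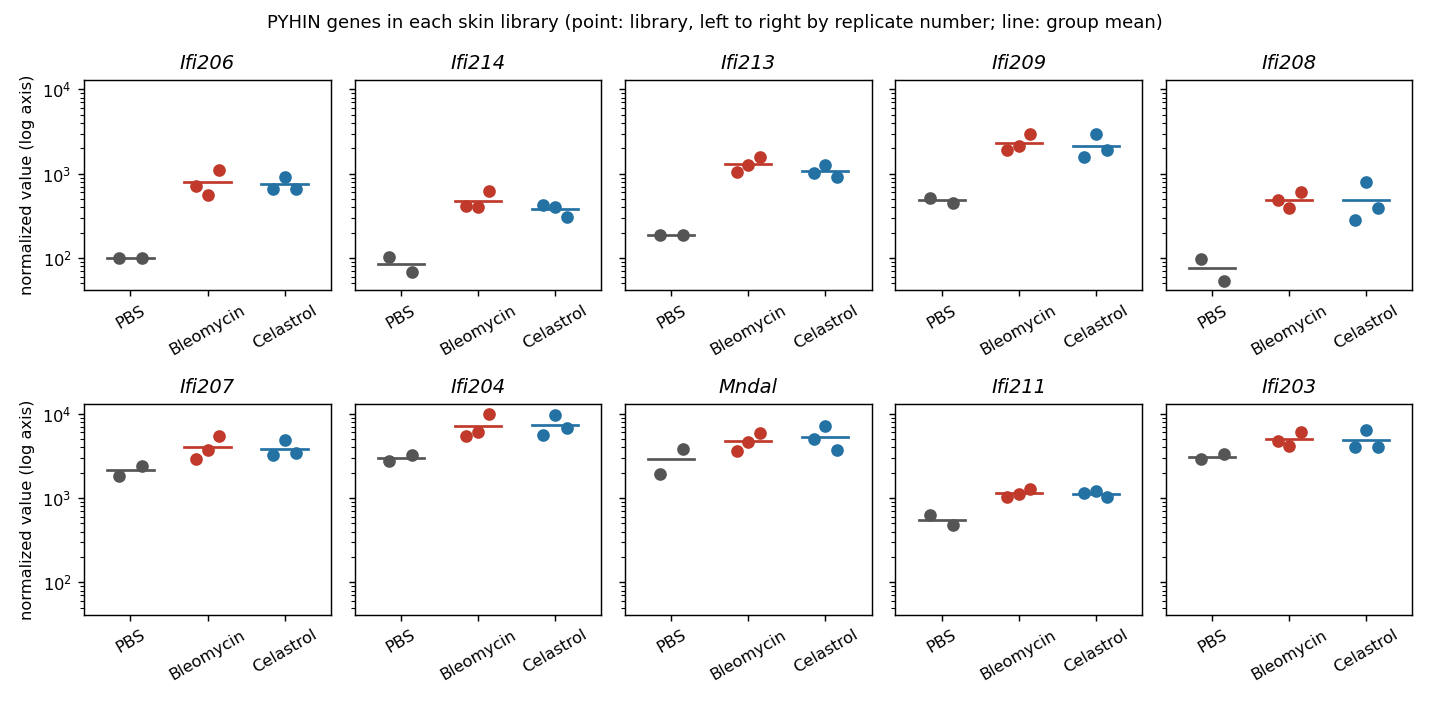
Normalized value (log axis) of the 10 genes in each library of the PBS (2), bleomycin (3) and celastrol (3) groups; points are libraries and lines are group means. The PBS points lie below all bleomycin and all celastrol points for every gene but Mndal.

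Mean values of all 10 members were higher in bleomycin skin than in PBS skin. The median difference over the 10 genes was 1.73 on the log2(value + 1) scale, with a range of 0.67 to 2.90, and all 10 differences were above 0; over all 23185 genes tested the median was -0.00. By the limma fit over all genes 5 of the 10 passed an adjusted p of 0.05, all higher, where 0.453% of all tested genes did so, and nothing is read from that count because the members were chosen on values of these libraries. The 5 were Ifi206, Ifi214, Ifi213, Ifi209 and Ifi208. The count came to 3 without Bleomycin 3, 2 without Bleomycin 4 and 9 with library weights. Among all tested genes 26, 15 and 384 were called higher in these fits. With 1 PBS library left, the median over the 10 genes was 1.78 (without PBS 2) or 1.74 (without PBS 3). The 2 groups did not overlap for 9 of the 10, with bleomycin above; 12.0% of all tested genes showed the same.

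Ifi204 encodes p204, the mouse DNA sensor upstream of STING that is most often likened to human IFI16. At chr1:173747293-173766943, its values were 2746 and 3249 in the PBS libraries, 5394, 6161 and 10036 in the bleomycin libraries, and 5645, 9552 and 6740 in the celastrol libraries. Every treated library lay above both PBS libraries. The bleomycin mean was 2.40 times the PBS mean, a log2 difference of 1.22 ± 0.28 (SE of the fit, n = 3 against 2). The celastrol mean was 2.44 times the PBS mean, with a difference of 1.26 ± 0.28.

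Ifi207, called Pyhin-A in RefSeq's synonyms, encodes a long-repeat PYHIN protein that is known to interact with STING. The gene lies at chr1:173723427-173741747, and stood at 1837 and 2420 in PBS, 2938, 3769 and 5384 in bleomycin, and 3277, 4889 and 3448 in celastrol. The lowest treated library, Bleomycin 2, was close to the higher PBS library but still above it. The differences from PBS were 0.89 ± 0.27 in bleomycin (1.89 times) and 0.85 ± 0.27 in celastrol (1.82 times).

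Ifi213 and Ifi208 carry the names Pydc4 and Pydc3 in RefSeq, after the pyrin domain, and share their promoter stretch base for base. Ifi213, at chr1:173566283-173599274, measured 185.3 and 187.4 in PBS, 1053, 1272 and 1583 in bleomycin, and 1017, 1262 and 919.0 in celastrol. The PBS libraries nearly coincided, and the lowest treated library was far above them. The bleomycin mean was 6.99 times the PBS mean (2.78 ± 0.25 on the log2 scale), and the celastrol mean 5.72 times (2.50 ± 0.25).

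Ifi208 (chr1:173673675-173698395) gave 97.62 and 53.70 in PBS, 482.3, 392.2 and 607.2 in bleomycin, and 280.0, 805.1 and 393.0 in celastrol. Relative to its mean it had the widest spread within the celastrol group of the 10 genes, with Celastrol 3 on top, and the PBS values were also apart. Its ratio to the PBS mean was 6.53 in bleomycin, 2.73 ± 0.46 on the log2 scale. In celastrol the ratio was 6.51, with a difference of 2.61 ± 0.46. The estimated 49 reads behind the value in PBS 3 were the fewest for any member in any library.

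Ifi206 lies first in the cluster (chr1:173468485-173491041) and shares 59 bases of the promoter stretch with the pair above. Its values were 101.1 and 100.2 in PBS, 709.1, 553.6 and 1104 in bleomycin, and 658.0, 917.1 and 661.4 in celastrol. The treated libraries all lay far above the PBS pair. The difference from PBS was 2.90 ± 0.32 in bleomycin, 7.84 times the PBS mean, and 2.86 ± 0.32 in celastrol, 7.41 times; those of Ifi213 and Ifi208 lay within about 1 SE of it in bleomycin.

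Ifi214 and Ifi209, the pair with 53 shared bases, lie at chr1:173519717-173535957 and chr1:173630917-173647928. Ifi214, called Pyhin-B in RefSeq, stood at 102.9 and 68.73 in PBS, 417.0, 397.9 and 622.5 in bleomycin, and 428.3, 403.9 and 308.0 in celastrol. The bleomycin ratio to PBS was 5.58 (2.47 ± 0.35 on the log2 scale) and the celastrol ratio 4.43 (2.15 ± 0.35). It was the member with the largest difference between celastrol and bleomycin, -0.32 ± 0.31, and those groups overlapped.

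Ifi209, which RefSeq also lists as Pyhin1, was at 512.5 and 452.6 in PBS, 1892, 2108 and 2947 in bleomycin, and 1571, 2945 and 1925 in celastrol. The top bleomycin and celastrol libraries were nearly equal. The mean in bleomycin was 4.80 times that in PBS (2.24 ± 0.28), and in celastrol 4.45 times (2.10 ± 0.28). Of the 75-base words in its exons 23.1% also occur in Ifi214, so reads of this length could be divided between the pair.

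Ifi203 and Mndal share their promoter stretch and sit at the far end of the cluster; Mndal is named for its likeness to MNDA, the myeloid nuclear differentiation antigen. Ifi203 (chr1:173920407-173942672) measured 2882 and 3330 in PBS, 4737, 4166 and 6039 in bleomycin, and 3985, 6507 and 3994 in celastrol. This was the smallest difference from PBS of the 10 in each treated group, 0.67 ± 0.24 in bleomycin (1.60 times) and 0.60 ± 0.24 in celastrol (1.55 times), although the libraries did not overlap.

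Mndal, at chr1:173849126-173880881 in the deposited table, was at 1952 and 3837 in PBS, 3610, 4681 and 5880 in bleomycin, and 4984, 7183 and 3707 in celastrol. PBS 3 lay above the lowest library of both treated groups, so this gene overlapped. The differences were 0.76 ± 0.34 in bleomycin and 0.90 ± 0.34 in celastrol, and they turned on which PBS library was used: 0.27 and 0.41 without PBS 2, 1.25 and 1.39 without PBS 3. In GENCODE M21 the gene runs on to 173942491, across Ifi211 and into Ifi203, so reads there could be assigned to more than 1 gene.

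Ifi211, which RefSeq also lists as Ifi205b, lies at chr1:173896345-173913046. It stood at 621.6 and 480.8 in PBS, 1020, 1105 and 1294 in bleomycin, and 1142, 1206 and 1032 in celastrol. The ratio to PBS was 2.07 in bleomycin (1.05 ± 0.21) and 2.04 in celastrol (1.04 ± 0.21). The bleomycin difference was 1.24 without PBS 2 and 0.87 without PBS 3, and the celastrol difference 1.22 and 0.85. It is the least certain of the 10 to measure, since 36.4% of its 75-base words occur in no other gene and 40.6% occur in Ifi205. In the other 9 genes between 76.9% and 97.2% of the words were unique.

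**Figure D2:**
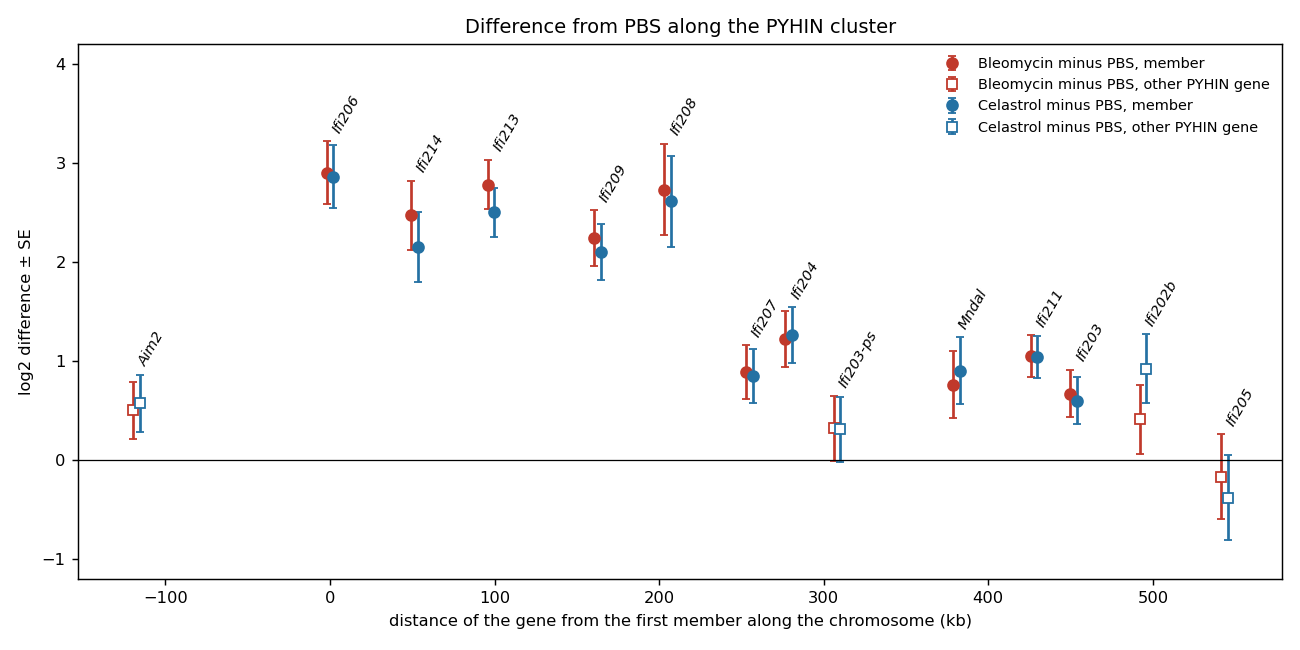
Log2 difference from PBS (vertical axis; bars are ± SE of the fit) of each PYHIN gene against its distance in kb from the first member, for bleomycin (red) and celastrol (blue); filled circles are the 10 members and open squares the other 4 PYHIN genes in the table. The 5 genes from Ifi206 to Ifi208 lie between 2.10 and 2.90, and the 5 from Ifi207 to Ifi203 between 0.60 and 1.26.

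Along the chromosome the 10 genes formed 2 runs, a division made after the values were seen. In the first 5, Ifi206 to Ifi208, the bleomycin means were 4.80 to 7.84 times the PBS means; in the last 5, Ifi207 to Ifi203, they were 1.60 to 2.40 times. Celastrol against PBS gave 4.43 to 7.41 times and 1.55 to 2.44 times. The first run holds the groups of alike stretches of Ifi206, Ifi213 and Ifi208 and of Ifi214 and Ifi209, and the second those of Ifi207 and Ifi211 and of Mndal and Ifi203, with Ifi204. Ifi205, whose stretch is like those of Ifi207 and Ifi211, differed from PBS by -0.17 in bleomycin. Whether the promoter sequence has a part in the size of these differences was not tested.

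**Figure D3:**
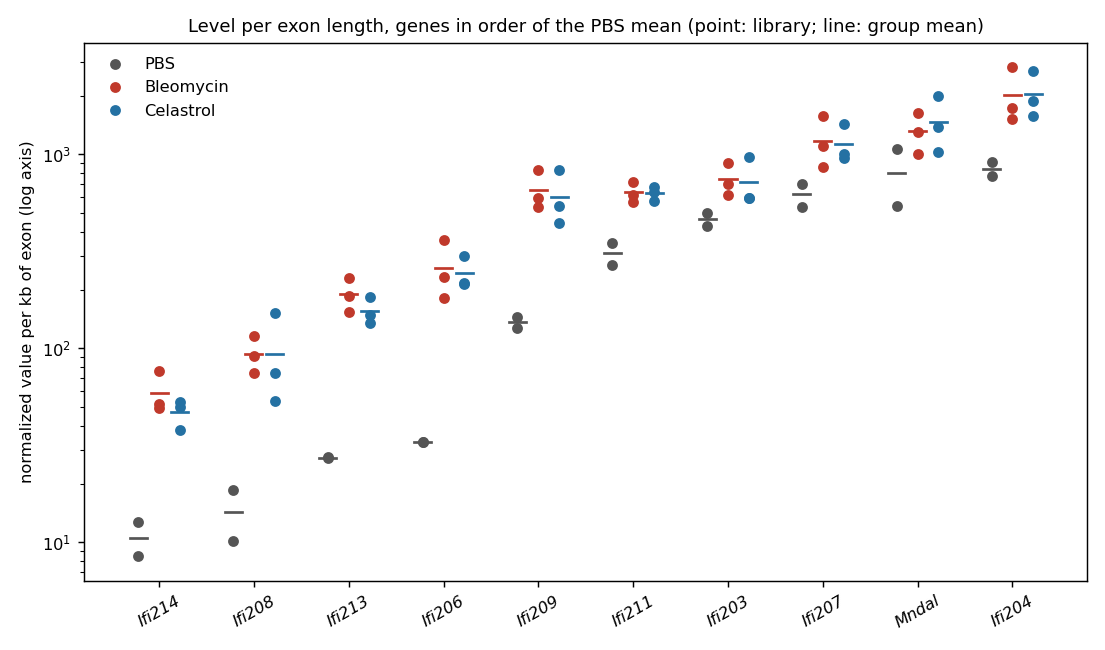
Normalized value per kb of exon (log axis) by gene, in order of the PBS mean; points are libraries and lines group means, in grey for PBS, red for bleomycin and blue for celastrol. The 5 genes at the left, from 10.6 to 136 per kb in PBS, are the 5 with the wider gap between PBS and the treated groups. The PBS values enter both the order and the gap.

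Compared per kb of exon, the same division followed the level in PBS. Each ratio is divided by the PBS mean of these same libraries, so the level and the division are not independent. The order of PBS means was Ifi214 (10.6 per kb), Ifi208 (14.4), Ifi213 (27.2), Ifi206 (33.0), Ifi209 (136), Ifi211 (309), Ifi203 (463), Ifi207 (622), Mndal (806) and Ifi204 (842). Neighbours whose PBS libraries overlapped were Ifi214 and Ifi208, Ifi207 and Mndal, and Mndal and Ifi204. In bleomycin the first 5 ranged from 59.1 to 653 per kb and the last 5 from 638 to 2020; Ifi209, at 653 per kb, then stood level with Ifi211, at 638 per kb. Exons of all annotated transcripts were joined for these lengths, so a gene with long unused exons would be placed too low.

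Celastrol against bleomycin gave small differences in the cluster; whether the celastrol mice also had bleomycin is not known here. The median over the 10 genes was -0.05 on the log2 scale, from -0.32 (Ifi214) to 0.14 (Mndal), and over all genes tested -0.04. By limma 0 of the 10 passed, with 0 below an unadjusted p of 0.05. Among all tested genes 0% passed higher and 0% passed lower, that is 0 of 23185, with 898 (3.87%) below an unadjusted p of 0.05. In no member were the 2 groups apart, where 4.13% of tested genes were apart with celastrol above and 4.59% with celastrol below. Without Celastrol 3 the groups were apart in 2 members, and without Bleomycin 2 in 1. Smaller groups are more easily apart, and the share of all tested genes is not given for them. Nothing is therefore read from these counts. The standard errors of 0.19 to 0.41 on these differences leave moderate differences in either direction possible.

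Set against PBS, celastrol skin resembled bleomycin skin in its values for the 10 genes, but these comparisons share the PBS libraries and are therefore not independent. The median difference was 1.68, from 0.60 to 2.86, with all 10 above 0 and a median of -0.07 over all genes tested. Of the 10, 6 passed the limma threshold, all higher, against 0.824% of tested genes. These were the 5 of the first run and Ifi211. Nothing is read from that count, because the members were chosen on values of these libraries. Without Celastrol 5 the count was 2, where 25 of all tested genes were called higher. With 1 PBS library left, the median over the 10 genes was 1.71 (without PBS 2) or 1.62 (without PBS 3). No overlap was seen in 9 of 10, where 13.2% of tested genes had celastrol above PBS throughout.

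**Figure D4:**
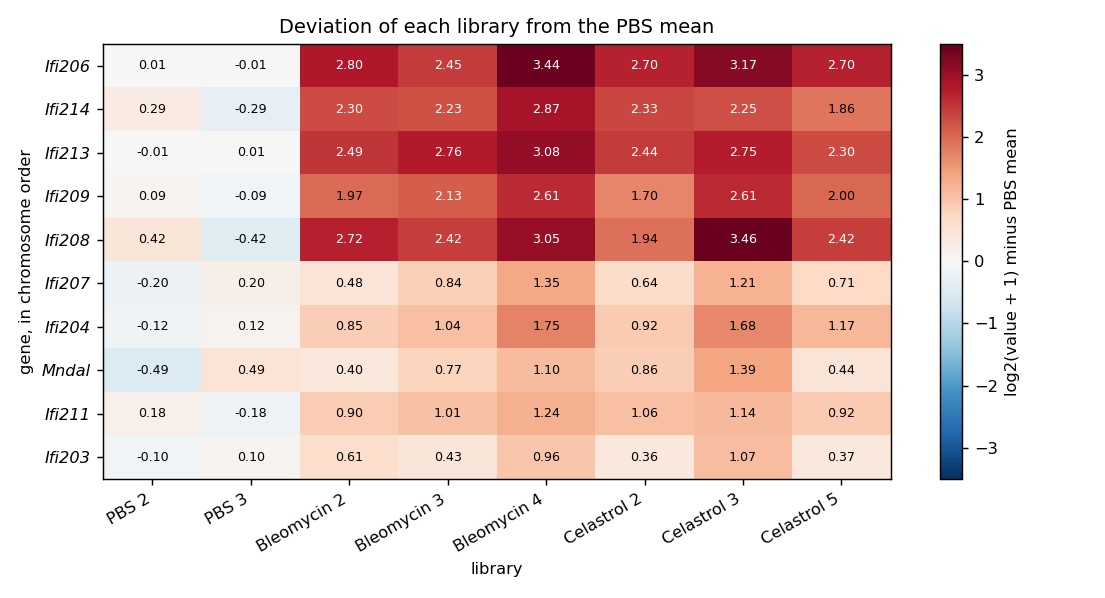
Log2(value + 1) of each gene (rows, in chromosome order) in each library (columns) minus the PBS mean; red is higher and blue lower, with the value printed in each cell. Bleomycin 4 and Celastrol 3 hold the highest values of their groups, for 10 and 9 of the 10 genes.

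Bleomycin 4 and Celastrol 3 had the top values of their groups for most of the cluster. The median deviation of the 10 genes from their PBS means was 1.44, 1.59 and 2.18 in Bleomycin 2, 3 and 4, and 1.38, 1.96 and 1.52 in Celastrol 2, 3 and 5. Bleomycin 4 was the highest library of its group for all 10 genes and the highest of all 8 for 7; Celastrol 3 was the highest of its group for 9 and of all 8 for the other 3. The PBS libraries showed no such order, each being the higher for 5 genes, and the lowest library was split between 2 libraries in both treated groups (6 and 4 genes). Their pairwise correlations over the 8 libraries lay between r = 0.657 and 0.986, given as a description, since the genes share libraries, groups and in part sequence. Summed over the 10 genes, the values were 11037 and 14180 in PBS, 22253 to 35497 in bleomycin and 22988 to 35669 in celastrol.

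The table held 4 further PYHIN genes, and none of them passed in any of the 3 comparisons. Aim2, the inflammasome sensor, was at 293.6 and 385.8 in PBS, 372.7, 561.6 and 519.0 in bleomycin, and 428.0, 614.1 and 473.9 in celastrol, and the bleomycin difference of 0.50 ± 0.29 had a limma adjusted p of 0.984. Ifi202b, whose product is known as an antagonist of Aim2, stood at 548.7 and 466.7, then 462.1, 1133 and 582.7, then 848.6, 905.9 and 1133. Its differences from PBS were 0.41 ± 0.35 in bleomycin and 0.92 ± 0.35 in celastrol (limma adjusted p = 1 and 0.305); the latter was the only one of the 4 genes' tests with an unadjusted p below 0.05.

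Ifi205, the myeloid gene once called D3, shares 55 of its 60 promoter bases with Ifi211 and carries the same C6T change. Its values were 2590 and 3541 in PBS, 2930, 1868 and 3550 in bleomycin, and 1972, 4516 and 1419 in celastrol. Both treated groups straddled PBS, with differences of -0.17 ± 0.43 and -0.38 ± 0.43 (limma adjusted p = 1 and 0.789). Ifi203-ps, a pseudogene copy, differed by 0.32 ± 0.33 in bleomycin (limma adjusted p = 1). Whether Ifi205 and Ifi211 differ from each other in their response was not tested.

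Upstream genes of the interferon pathway were changed in part. Of 19 tested genes for interferons, their receptors and their signalling, 3 rose in bleomycin against PBS, 0 fell, and the median was 0.25; 1 passed without PBS 2 and 0 without PBS 3, Bleomycin 3 or Bleomycin 4. Among them were Stat2 (1.04 ± 0.16, limma adjusted p = 0.0224), a transcription factor that acts on response elements, and Irf7 (3.12 ± 0.48, adjusted p = 0.0209), which amplifies type I interferon. Without PBS 3 their limma adjusted p was 0.168 and 0.158, and without PBS 2 it was 0.107 for Stat2 and 0.00822 for Irf7; the difference of Irf7 ran from 2.38 (without PBS 3) to 3.87 (without PBS 2). Celastrol against PBS gave 2 of 19, among them Irf7 at 2.87 with a limma adjusted p of 0.0196; 1 passed without PBS 2 or without Celastrol 2, and 0 without PBS 3 or Celastrol 5. Stat2 was at 0.59 there, with a limma adjusted p of 0.138.

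Among 40 other interferon-stimulated genes, 14 rose in bleomycin and 0 fell, with a median of 1.52 and all 40 differences above 0; in celastrol against PBS 15 rose and 0 fell, with a median of 1.33. Single libraries decided these counts: bleomycin gave 7 without PBS 2, 0 without PBS 3, 7 without Bleomycin 3, 2 without Bleomycin 4 and 8 without Celastrol 5. In celastrol the count was 0 when PBS 3 or Celastrol 5 was left out, 7 when PBS 2 or Celastrol 2 was, and 9 to 14 when any of the other libraries was. Oasl2 rose by 2.28 (limma adjusted p = 0.00506), Ifit3 by 2.73 (adjusted p = 0.00613) and Ifit1 by 2.33 (adjusted p = 0.0101) in bleomycin. Without PBS 3 the 3 differences were 2.09, 2.28 and 2.05, with limma adjusted p of 0.0511, 0.0511 and 0.0966. Of the 22 tested genes of cytosolic DNA sensing and the inflammasome, the pathways that PYHIN proteins feed, 1 rose, 0 fell, and the median was 0.35, with 7 below an unadjusted p of 0.05 where 6.82% of all tested genes were. That gene was Zbp1, a nucleic acid sensor of cell death, at 2.34 ± 0.25 in bleomycin (limma adjusted p = 0.00506) and 2.10 in celastrol (adjusted p = 0.00494); it passed with any 1 library left out. Nlrp3 differed by 1.94 and Samhd1 by 0.66, with limma adjusted p of 0.28 and 0.18.

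Myeloid cells express many PYHIN genes, so their markers are given here; the part that cell numbers have in the members' values was not tested. Of 20 macrophage and monocyte genes 2 rose in bleomycin, Ly6c2 (3.28 ± 0.49, limma adjusted p = 0.0206) and Fcgr1 (4.05 ± 0.73, adjusted p = 0.0366), both of which also respond to interferon, and the median was 0.52. Without PBS 3 neither passed (limma adjusted p = 0.145 and 0.0588), nor without Bleomycin 3 or Bleomycin 4, and Fcgr1 did not pass when any 1 of the celastrol libraries was left out. Fcgr1 was at 111.3 in PBS 2 and 9.93 in PBS 3, so its difference ran from 2.37 without PBS 3 to 5.73 without PBS 2, and that of Ly6c2 from 2.53 to 4.04. The summed level of the list was 31851 to 35003 in PBS, 37938 to 51681 in bleomycin and 30666 to 49128 in celastrol, so celastrol and PBS overlapped in this sum. Celastrol 2 had the lowest sum of all, below both PBS libraries. Its median deviation over the 10 PYHIN genes, 1.38, was the lowest of the 6 treated libraries. Bleomycin 3 had the highest sum, with a median deviation of 1.59. Bleomycin 4 had the highest deviation, 2.18, with a sum of 44216. Of 6 neutrophil genes 1 rose in bleomycin and 2 in celastrol against PBS, and the summed level was 1033 and 1494 in PBS, 1523 to 6173 in bleomycin and 2145 to 3089 in celastrol; 0 passed without either PBS library, and in bleomycin any 1 library but Bleomycin 2 ended the call.

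Other cell type lists changed as well. Of 12 fibroblast genes 7 fell in bleomycin and 8 in celastrol, with medians of -2.05 and -2.06, and their summed level was 367876 and 775938 in PBS, 36280 to 111346 in bleomycin and 33858 to 83362 in celastrol; in both, 0 passed without either PBS library, as in bleomycin without Bleomycin 3 or Bleomycin 4 and in celastrol without Celastrol 5, and in bleomycin 3 and in celastrol 1 passed without Celastrol 2. Skeletal muscle genes summed to 601114 and 609596 in PBS, 865391 to 1182337 in bleomycin and 1380560 to 2109272 in celastrol, where 10 of 18 rose against PBS and 1 of 18 did so in bleomycin; the celastrol count was 2 without PBS 2, 1 without PBS 3, 6 when Bleomycin 4 or Celastrol 2 was left out, and 0 when Celastrol 5 was. The 1 skeletal muscle call in bleomycin ended when any 1 bleomycin library or Celastrol 5 was left out. By limma 0 of 14 T and NK cell genes, 0 of 4 B cell genes and 0 of 12 dendritic cell genes passed in bleomycin against PBS, with 1, 0 and 2 below an unadjusted p of 0.05. In celastrol against PBS 1 of 12 dendritic cell genes fell, the MHC class II gene H2-Eb1 (-1.17, limma adjusted p = 0.0345), with a median of -1.21. The summed level of that list was 10336 and 19823 in PBS, 7890 to 10241 in bleomycin and 5209 to 8050 in celastrol, so PBS lay above both treated groups. Of 10 endothelial genes 1 fell in celastrol, the angiopoietin receptor gene Tek (-1.27, limma adjusted p = 0.0285). The H2-Eb1 call ended without Bleomycin 3, Bleomycin 4 or any 1 celastrol library. The Tek call ended without Bleomycin 4, Celastrol 2 or Celastrol 5. Without either PBS library 0 passed in these last 2 lists. Of 12 keratinocyte genes 1 rose in bleomycin, Flg (1.81 ± 0.25, limma adjusted p = 0.0144, and 0.0895 without PBS 3), and 0 of 10 endothelial genes passed in bleomycin, with 2 below an unadjusted p of 0.05. Flg also did not pass in bleomycin without Bleomycin 3 or Bleomycin 4 (limma adjusted p = 0.0608 and 0.0563). In celastrol against PBS it differed by 2.40 (limma adjusted p = 0.00379). No listed marker was at 0 in all 8 libraries. Which part these changes in marker values have in the PYHIN values was not tested.

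Genes in and around the cluster that carry no PYHIN name did not pass in any comparison. Inside it lie 2 predicted genes, Gm18752 and Gm7897, with differences of 2.22 and 0.78 in bleomycin. Some of these carry PYHIN sequence: Gm18752 shares 3.65% of the 150-base words of Ifi206, and Gm18445, after Ifi203, shares 1.27% of the 75-base words of Ifi207. The 10 genes on each side had medians of -0.40 before Ifi206 and -0.11 after Ifi203. By limma 0 of these 22 passed in bleomycin against PBS (3 below an unadjusted p of 0.05), 0 in celastrol against PBS (5) and 0 in celastrol against bleomycin (0).

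The genes outside the family most like the mean of the 10 over the 8 libraries, among 13374 genes ranked by Pearson's r, were Sp110 (0.992), Ces2e (0.991), Pde7b (0.987), BC147527 (0.984) and Cd80 (0.978). With 1 library left out Sp110 stayed first or second, whereas the others changed places, and Cd80 fell as low as rank 13. Sp110, an interferon-inducible nuclear body gene, was at 327.4 and 315.6 in PBS, 808.2, 855.8 and 1203 in bleomycin, and 912.0, 1038 and 765.9 in celastrol. Cd80, the costimulatory ligand of antigen-presenting cells, was at 58.62 and 67.84 in PBS, 225.2 to 402.0 in bleomycin and 221.2 to 342.6 in celastrol. These genes were picked as the nearest of many and share the group differences, so the correlations describe the libraries only.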

How the data were processed

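The table used holds signal values per gene in 8 libraries (2 PBS, 3 bleomycin, 3 celastrol), deposited by the authors as read estimates divided by a DESeq2 size factor. Per the submitters' processing notes, Partek 10.0.22, STAR 2.7.3a, DESeq2 and mm10 were used; library kit and TRIzol extraction are per the labels. Low values were not whole multiples of 1 read (48.6 to 59.3% lay within 0.03 reads of a whole number), so no count test was run. Depth was estimated from the value of 1 read in each library.

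Log2(value + 1) was fitted with limma 3.58.1 in R 4.3.3 (eBayes with trend), all 8 libraries in 1 model, for the 23185 genes with at least 10 in at least 2 libraries (1427 were removed), with two-sided p-values adjusted by Benjamini and Hochberg over all tested genes and a threshold of 0.05. The fit was tested on simulated data. The labels do not say that libraries of a group came from separate mice, and p-values measure only the spread between these libraries. Means carry SDs in the tables behind the text, and differences the SE of the fit.

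The members and the 13 gene lists (194 of 210 genes in the table) were chosen with earlier results of these data known. Named were all members, other PYHIN genes, up to 3 genes of each list with the smallest p, and the 5 genes most like the members' mean at a mean value of at least 50. Positions come from the table, whose end is 1 base past that of GENCODE M21; 23752 genes matched M21. Exon length, shared 75-base words and RefSeq promoter windows (GRCm38.p6) were computed from the references; the 10-base search was chosen after the matches were seen. Alternatives were other pseudocounts, filters, scalings, library weights, fits of 2 groups, a replicate block, and leaving out each library. Protein sequences were not used here. 1 gene that the naming rule selects is not reported here.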

Additional observations from a re-analysis of the deposited data

How the results depend on the processing

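All 10 members stayed above 0 against PBS under each of the 17 alternatives, with log2 differences of 0.27 to 3.29 in bleomycin and 0.36 to 3.03 in celastrol, and no result changed sign among those called; celastrol against bleomycin was above 0 in 49 of 170 values, from -0.69 to 0.54. Counts of calls moved more. Bleomycin against PBS gave 157 genes and 5 members; library weights gave 711 and 9, and leaving out 1 library gave 16 to 229 genes and 2 to 6 members. Celastrol against PBS gave 317 genes and 6 members, and 38 to 418 genes and 2 to 7 members with 1 library left out. Celastrol against bleomycin gave 0 genes and 0 to 1 with 1 library left out; 0 members were called, and 0 to 2 members had groups that did not overlap. For groups without overlap, the share of all tested genes is not given with 1 library left out, so nothing is read from those member counts. Leaving out 1 library removes samples from groups of 2 and 3. For the library weights the cause was not tested. With the replicate block, 17 genes and 1 member were called in bleomycin against PBS, and 41 genes and 2 members in celastrol against PBS. Same-numbered libraries correlated at -0.00485 to 0.203 in their deviations, so the numbers were not taken to pair the libraries. The PBS group has 2 libraries, and the fewest reads behind a member's value were 49 (Ifi208 in PBS 3).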

Other observations

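The 10 bases shared by the promoter stretches were present in 16 of 27025 genes (0.0592%), 7 of them members; the search was built from the members' own windows, so that count is not independent of them. Of the other 9 genes, 7 were tested, and by limma 0 rose in bleomycin against PBS and 0 in celastrol against PBS, while 4 had a bleomycin difference above 0. The largest was Ddx58, which encodes the RNA sensor RIG-I, at 0.83 ± 0.25 with a limma adjusted p of 0.283. Parp11 differed by 0.35, the cell death kinase gene Ripk1 by 0.25 and Serpinb6a by 0.18.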
